A study of Mus musculus with 6 samples.

Results

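The genes that write, remove and read N1-methyladenosine (m1A) in RNA were followed in macrophages sorted from mouse tumours, with and without the m1A writer Trmt61a. The 9 listed genes were looked up by symbol in a table of 21878 genes. Of these, 8 were analysed, and all 8 passed the filter on low counts. Trmt61b was not found in that table and so was not analysed here. The KO group holds 3 libraries from Trmt61af/fLysmCre mice, in which a Cre driven by the lysozyme M gene removes the floxed allele in myeloid cells in general, neutrophils included. The WT group holds 3 libraries from Trmt61af/f mice, which carry the same floxed allele and no Cre. All mice bore MC38 tumours, a mouse colon carcinoma line, for 14 days, and the macrophages were collected by FACS. Neither the sorting gate, the age of the mice nor the floxed exons are given in the sources used here. No label ties a replicate number to a single mouse, so each p-value reflects only how far these samples vary, and part of that variation may be technical.

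m1A carries a methyl group on the edge of adenine that pairs with other bases, and it is abundant in the T loop of cytosolic tRNA. There it is made by TRMT6 and TRMT61A, a complex in which TRMT61A holds the methyl donor and TRMT6 helps to bind the tRNA. Mitochondrial tRNA is served by other enzymes, TRMT61B and TRMT10C. The AlkB-family dioxygenases ALKBH1 and ALKBH3 can remove the mark, and the YTHDF proteins, best known as readers of N6-methyladenosine (m6A), have also been reported to bind RNA with m1A, mainly in human cells. The libraries measure RNA levels and hold no measurement of m1A itself or of translation.

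The libraries held 18839026 to 20313597 counts and did not differ in depth in a way that separates the groups. Markers of macrophages summed to 15109 to 15838 CPM in KO and 15185 to 16783 CPM in WT, with all 12 listed genes at 1817 counts or more in every library. Here CPM is a gene's count scaled to a common library size with TMM factors. Neutrophil markers summed to 56.6 to 100 CPM in KO and 54.7 to 72 CPM in WT, T and NK markers to 19.7 to 54 and 23.3 to 32.7 CPM, and dendritic markers to 19.1 to 34.5 and 13.9 to 25.5 CPM. Fibroblast markers summed to 92.3 to 135 CPM in KO and 103 to 128 CPM in WT, and endothelial markers to 57.8 to 78.8 and 51.2 to 66.6 CPM. B-cell markers reached at most 2.68 CPM and epithelial markers at most 0.448 CPM in any library. In each of these lists the ranges of the groups overlapped, and no listed marker was at 0 in all 6 libraries. Some sums rested mostly on few genes, given here as means in KO and WT. In the endothelial list Pecam1 stood at 63.1 and 53.8 CPM, and Cdh5, Kdr and Tek at 2.12 CPM or less. In the neutrophil list Csf3r stood at 43.4 and 41.2 CPM and Mmp8 at 16.3 and 11.1 CPM. In the dendritic list Ccr7 stood at 16.4 and 12 CPM.

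Trmt61a, the catalytic subunit, fell in KO macrophages to 28.3% of its WT level. The gene lies on chromosome 12, 111678105 to 111683902, plus strand (GRCm38). Its counts were 41, 33 and 50 in the KO libraries and 157, 138 and 148 in the WT libraries, and the highest KO library lay far below the lowest WT library. Scaled by library, these counts are 2.13, 1.73 and 2.46 CPM in KO and 8.01, 6.95 and 7.38 CPM in WT, with means of 2.11 ± 0.366 and 7.45 ± 0.532 CPM (SD, n = 3 each). The log2 fold change was -1.81 (SE 0.197, 95% interval -2.26 to -1.37), and the gene passed with edgeR's quasi-likelihood test (adjusted p = 0.0426). In linear terms the interval spans 0.209 to 0.386 of the WT level. All 6 libraries therefore followed their labels.

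Every KO library kept reads of Trmt61a. Exact Poisson 95% intervals on the counts ran from 22.7 to 65.9 over the KO libraries and from 115.9 to 183.6 over the WT libraries, and cover counting error only. The spread between libraries was close to that error: the coefficient of variation was 17.4% in KO, where counting alone gives 15.6%, and 7.14% in WT, where counting gives 8.23%. In bulk RNA, fewer cells with the transcript and less transcript per cell cannot be told apart, and counts over the whole gene do not separate transcripts with and without the floxed exons. Whether cells other than macrophages contributed to the remaining reads was not tested. The call is close to its threshold. It was lost when any library other than KO replicate 2 was left out, with adjusted p = 0.111 without KO replicate 1, 0.14 without KO replicate 3, 0.13 without WT replicate 1, 0.0707 without WT replicate 2 and 0.314 without WT replicate 3, while the log2 value stayed between -1.94 and -1.69.

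**Figure D1:**
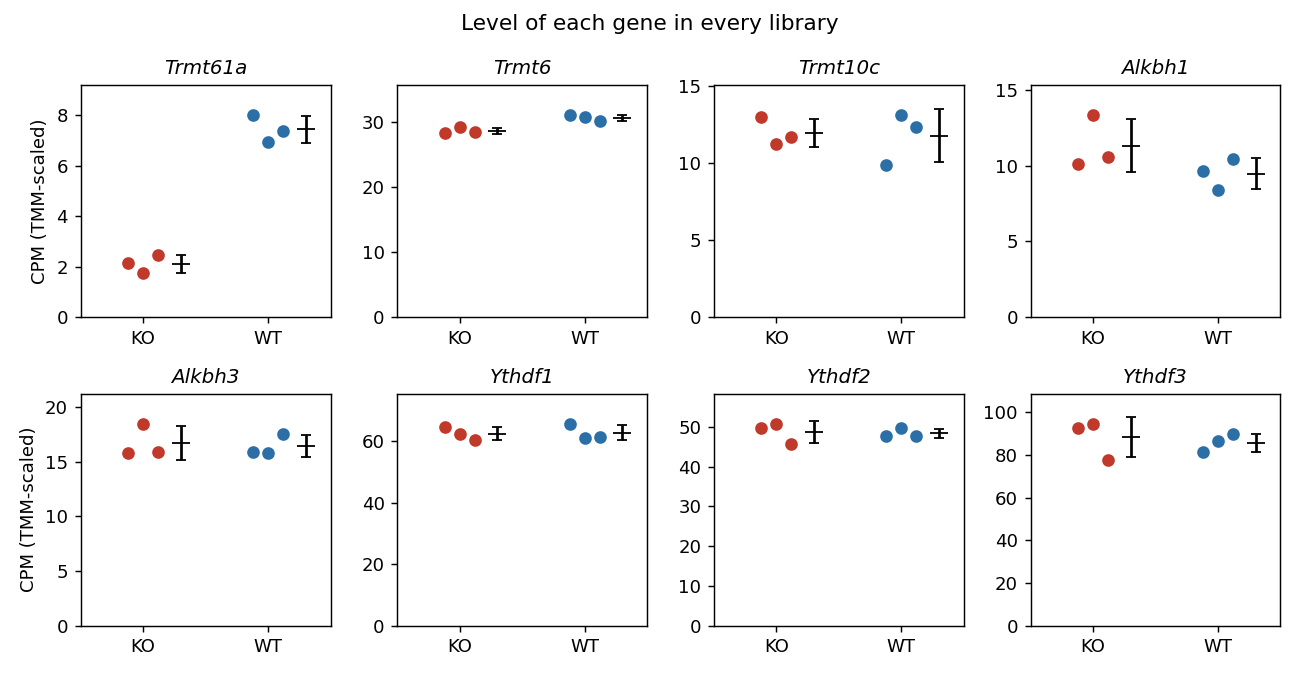
Level of each analysed gene in CPM (TMM-scaled, linear axis from 0) in the 3 KO libraries (red) and the 3 WT libraries (blue); black marks are the mean and SD. Trmt61a lies at 1.73 to 2.46 CPM in KO and 6.95 to 8.01 CPM in WT, Trmt6 is slightly lower in KO without passing the test, and the groups overlap in the other 6 genes.

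Across the transcriptome, 0.0165% of the 12136 genes tested passed as lower in KO and 0.00% as higher. Trmt61a was the single member of the 8 among them, and it ranked 1 of all genes by p. At an unadjusted p under 0.05, 371 genes (3.06%) were lower and 469 (3.86%) higher, with Trmt61a again the single member. DESeq2 called 19 genes lower and 8 higher. The other gene that passed with edgeR was its neighbour Ckb, brain-type creatine kinase, at 15.4 ± 3.34 CPM in KO and 85.4 ± 25.2 CPM in WT (SD, n = 3 each). The adjusted p of Ckb stayed under 0.05 in 6 of the 15 other settings. The call did not hold with RLE factors, upper quartile factors, library totals alone, no filter or a filter at 1 CPM (edgeR adjusted p = 0.0517, 0.128, 0.128, 0.501 and 0.076), and without KO replicate 1, 2 or 3 or WT replicate 3 (0.106, 0.395, 0.285 and 0.294). Lyz2, the lysozyme M locus that carries the Cre, stood at 4990 ± 556 CPM in KO and 9473 ± 1719 CPM in WT. All its KO libraries lay below all its WT libraries, with a log2 fold change of -0.925 (SE 0.135). Lyz2 ranked 3 of all genes by p but did not pass (edgeR adjusted p = 0.244). The cause of its lower level in KO was not tested. The other 7 members had log2 fold changes from -0.095 to 0.26 with a median of 0.023, and none passed. All genes tested had a median of -0.00088.

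Trmt6, the partner subunit (chromosome 2, 132804207 to 132816055, minus strand), stood at 93.6% of its WT level in KO and did not pass. Its counts were 546, 557 and 577 in the KO libraries and 609, 610 and 604 in the WT libraries. The CPM values were 28.4, 29.2 and 28.4 in KO and 31.1, 30.7 and 30.1 in WT, so all KO libraries lay below all WT libraries. That order was shared by 6.30% of the genes tested, and the opposite order, which no member showed, by 6.11%. The means were 28.7 ± 0.487 CPM in KO and 30.6 ± 0.492 CPM in WT (SD, n = 3 each), with a log2 fold change of -0.095 (SE 0.0771, 95% interval -0.27 to 0.077, edgeR adjusted p = 0.807). The coefficients of variation of 1.70% in KO and 1.60% in WT were smaller than the 4.23% and 4.06% that counting alone gives, so the replicates sat closer together than their depth would set. The interval leaves room for a loss to 0.831 of the WT level and for a gain to 1.05 of it.

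The imbalance between the subunits can be read inside each library, where no scaling factor enters. Trmt61a counts were 7.51%, 5.92% and 8.67% of Trmt6 counts in the KO libraries, against 25.8%, 22.6% and 24.5% in the WT libraries. Per kilobase of exon, this is 16.3% ± 3.05 in KO and 53.8% ± 3.51 in WT (SD, n = 3 each). Trmt61a RNA was thus the scarcer subunit in both groups, and the groups did not overlap. The log2 ratio differed by -1.74 between KO and WT (two-sided exact permutation p = 0.1, the smallest that 3 against 3 allows).

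The same ratio was formed with each of the other members, 7 in all. The differences between KO and WT in log2 ratio ran from -2.08 against Alkbh1 to -1.74 against Trmt6, and the KO libraries lay below the WT libraries for every denominator. Each exact permutation p was 0.1, as was each value after Benjamini-Hochberg adjustment over the 7 ratios, so this design could not reach 0.05. Against Alkbh1, whose counts are nearest to those of Trmt61a, the ratio was 21.1%, 13.0% and 23.4% in KO and 83.1%, 83.1% and 70.8% in WT. All ratios share the Trmt61a counts and are not independent of each other.

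**Figure D2:**
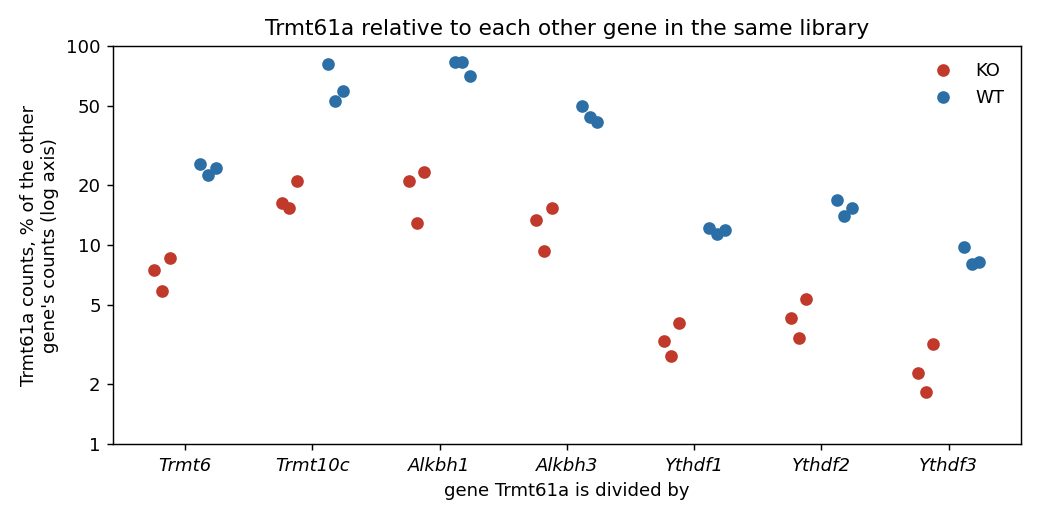
Trmt61a counts as a percentage of the counts of each other gene in the same library, on a log axis, for the 3 KO libraries (red, left of each pair) and the 3 WT libraries (blue). In all 7 ratios the KO points lie below the WT points, for Trmt6 at 5.92% to 8.67% against 22.6% to 25.8%.

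Trmt10c, which methylates mitochondrial tRNA and is also a subunit of mitochondrial RNase P, did not pass. The gene lies on chromosome 16, 56032609 to 56037819, minus strand. Its counts were 250, 214 and 237 in KO and 193, 260 and 248 in WT, and the WT range enclosed the KO range. The means were 11.97 ± 0.91 CPM in KO and 11.8 ± 1.71 CPM in WT (SD, n = 3 each), with a log2 fold change of 0.023 (SE 0.139, 95% interval -0.29 to 0.33, edgeR adjusted p = 0.973). WT replicate 1 was the lowest library, and without it the log2 value was -0.087.

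Its partners in mitochondrial RNase P, named here as partners and not for their p, gave the same picture of overlap. Hsd17b10, a dehydrogenase that scaffolds TRMT10C for methylation, had 558, 557 and 699 counts in KO and 593, 663 and 568 in WT (log2 fold change 0.011, 95% interval -0.22 to 0.24). Prorp, the nuclease of the complex, listed under an older symbol, had 130, 137 and 135 counts in KO and 156, 128 and 111 in WT (log2 fold change 0.047, 95% interval -0.34 to 0.43). Neither passed (edgeR adjusted p = 0.983 for Hsd17b10 and 0.958 for Prorp).

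The erasers did not pass either. Alkbh1, a dioxygenase that demethylates m1A in tRNA and is also found in mitochondria, had 194, 254 and 214 counts in KO and 189, 166 and 209 in WT. KO replicate 2 stood highest and WT replicate 2 lowest, and the groups overlapped because WT replicate 3, at 10.4 CPM, lay above KO replicate 1, at 10.1 CPM. The means were 11.3 ± 1.76 CPM in KO and 9.48 ± 1.04 CPM in WT (SD, n = 3 each). The log2 fold change of 0.26 was the farthest from 0 among the members that did not pass (SE 0.152, 95% interval -0.083 to 0.59, edgeR adjusted p = 0.754), and it was 0.12 without KO replicate 2. Alkbh1 lies on chromosome 12, 87425840 to 87444017, minus strand, and 122 of its exon bases are shared with Slirp on the other strand, whose reads cannot be told apart if strand was not used in counting.

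Alkbh3, which removes m1A and 3-methylcytosine from RNA and DNA, had 304, 352 and 323 counts in KO and 312, 314 and 353 in WT and the groups overlapped. Its means were 16.7 ± 1.52 CPM in KO and 16.4 ± 0.996 CPM in WT (SD, n = 3 each; log2 fold change 0.024, SE 0.11, 95% interval -0.22 to 0.27, edgeR adjusted p = 0.964). The gene lies on chromosome 2, 93980550 to 94010807, minus strand. Of its exon bases, 172 are shared with the predicted gene Gm27027 on the same strand and 85 with Alkbh3os1 on the other, so its value is uncertain by what those genes contribute.

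The readers were the most abundant members per kilobase of exon. Ythdf1, which in human cells has been tied to translation of m6A-marked RNA, had 1248, 1188 and 1228 counts in KO and 1288, 1216 and 1234 in WT (62.6 ± 2.15 and 62.8 ± 2.50 CPM; SD, n = 3 each). Ythdf2, which recruits the CCR4-NOT deadenylase to its targets, had 956, 966 and 927 counts in KO and 934, 987 and 955 in WT (48.7 ± 2.65 and 48.3 ± 1.22 CPM). Ythdf3, which is thought to act with both, had 1789, 1802 and 1573 counts in KO and 1592, 1715 and 1800 in WT (88.3 ± 9.41 and 85.8 ± 4.28 CPM). The groups overlapped in all 3 readers.

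None of the readers passed with edgeR. The log2 fold change was -0.0062 for Ythdf1 (SE 0.0695, 95% interval -0.16 to 0.15, adjusted p = 0.987), 0.01 for Ythdf2 (SE 0.0736, -0.15 to 0.17, 0.977) and 0.042 for Ythdf3 (SE 0.0889, -0.16 to 0.24, 0.93). These intervals leave out falls below 0.894 of the WT level and rises above 1.18 of it. Ythdf3 was the least even of them, with a coefficient of variation of 10.6% in KO where counting gives 2.41%, and its lowest library was KO replicate 3. As a share of the 3 readers per kilobase of exon, Ythdf1 held 41.1% ± 1.59 in KO and 41.6% ± 1.76 in WT, Ythdf2 23.2% ± 0.357 and 23.2% ± 0.611, and Ythdf3 35.8% ± 1.69 and 35.1% ± 1.64 (SD, n = 3 each). The order of the readers was the same in all 6 libraries.

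**Figure D3:**
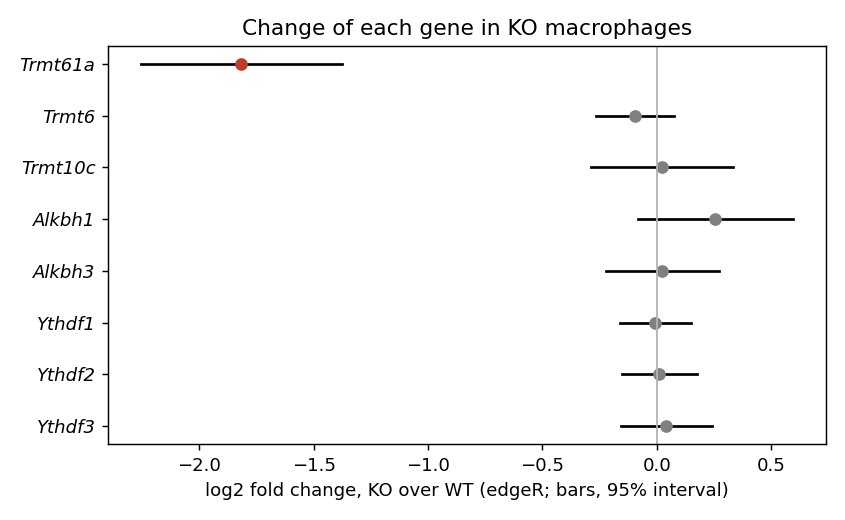
Log2 fold change of each analysed gene, KO over WT, from edgeR; bars are 95% intervals and the red point passed at an adjusted p under 0.05. The Trmt61a interval of -2.26 to -1.37 lies apart from those of the other 7 genes, which span -0.29 to 0.59 and all include 0.

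The readers are close paralogs, so their sequences bear on whether reads could have been divided between them. Their coding sequences (GENCODE M21, GRCm38; Ythdf1 on chromosome 2, Ythdf2 on chromosome 4, Ythdf3 on chromosome 3) were 69.9% identical between Ythdf1 and Ythdf2, 70.6% between Ythdf1 and Ythdf3 and 71.8% between Ythdf2 and Ythdf3 over aligned bases. No stretch of 50 bases was shared by any pair of them in annotated transcripts. The longest exact runs common to a pair follow in capitals, each with 18 bases of coding sequence on either side in lower case, to show how soon the paralogs part.
Ythdf1, run shared with Ythdf2: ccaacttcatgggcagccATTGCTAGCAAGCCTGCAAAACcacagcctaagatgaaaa
Ythdf2, run shared with Ythdf1: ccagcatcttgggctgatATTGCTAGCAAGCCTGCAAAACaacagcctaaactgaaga
Ythdf1, run shared with Ythdf3: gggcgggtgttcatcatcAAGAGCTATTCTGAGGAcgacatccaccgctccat
Ythdf3, run shared with Ythdf1: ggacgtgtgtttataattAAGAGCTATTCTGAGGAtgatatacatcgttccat
Ythdf2, run shared with Ythdf3: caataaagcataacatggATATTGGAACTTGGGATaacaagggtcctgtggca
Ythdf3, run shared with Ythdf2: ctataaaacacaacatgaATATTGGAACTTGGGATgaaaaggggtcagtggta
The runs are 22, 17 and 17 bases long. Ythdf2 differs from the other readers in having identical stretches elsewhere: 7.49% of its distinct 50-base stretches also occur in the annotated transcripts Gm6823 or Gm8401. How far this affects its counts was not tested. The share of 50-base stretches found in another gene was 0.326% for Trmt61a, 3.63% for Alkbh3, 0.309% for Alkbh1 and 0 for Trmt6, Trmt10c, Ythdf1 and Ythdf3, on the same strand.

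Set against each other per length, the members covered a wide range. In KO macrophages the order was Ythdf1 (18.9 ± 0.65 reads per kilobase of exon, scaled as CPM), Ythdf3 (16.5 ± 1.75), Ythdf2 (10.6 ± 0.579), Trmt6 (5.33 ± 0.0904), Alkbh3 (5.3 ± 0.48), Trmt10c (3.99 ± 0.303), Alkbh1 (1.72 ± 0.268) and Trmt61a (0.867 ± 0.151). In WT macrophages it was Ythdf1 (18.9 ± 0.754), Ythdf3 (16 ± 0.798), Ythdf2 (10.6 ± 0.266), Trmt6 (5.69 ± 0.0913), Alkbh3 (5.21 ± 0.315), Trmt10c (3.92 ± 0.568), Trmt61a (3.06 ± 0.219) and Alkbh1 (1.44 ± 0.158; SD, n = 3 each throughout). Trmt61a and Alkbh1 change places between the groups, and the other 6 keep theirs. Neighbours whose libraries overlapped were Trmt6 and Alkbh3 in KO and Trmt10c and Trmt61a in WT.

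The length used matters for Alkbh3. With the longest annotated transcript in place of all exons, Alkbh3 stood at 12 ± 1.09 in KO and 11.8 ± 0.714 in WT, level with Ythdf2 at 11.8 ± 0.641 and 11.7 ± 0.295, and above Trmt6 at 6.91 ± 0.117 and 7.38 ± 0.118. The last 3 places were the same with either length.

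**Figure D4:**
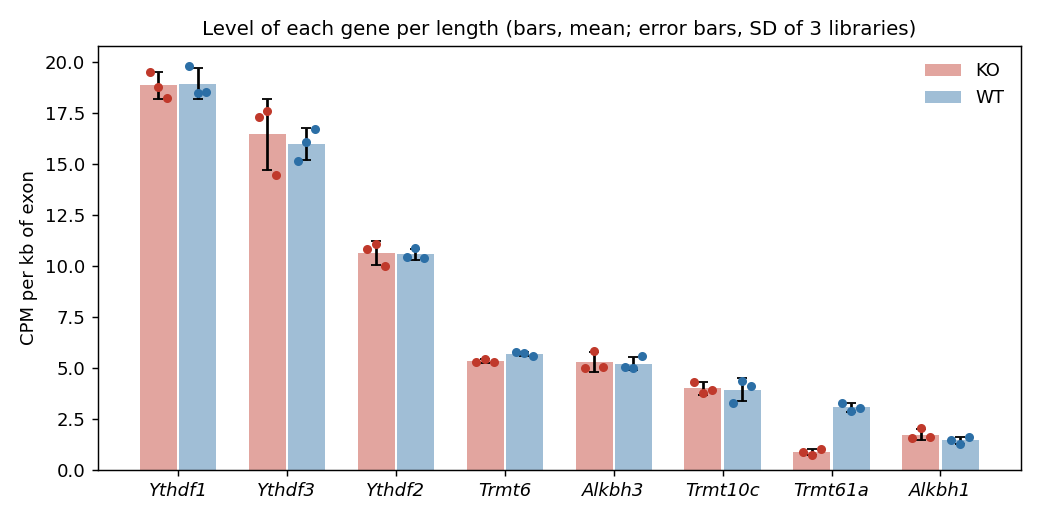
Level of each gene per length, in CPM per kilobase of exon (linear axis from 0), ordered by the WT mean; bars are means, error bars SD and points the 3 libraries of KO (red, left) and WT (blue, right). The readers stand highest at 10.6 to 18.9, and Trmt61a is the only gene whose KO bar, at 0.867, lies well below its WT bar, at 3.06.

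Genes around the m1A machinery were read from lists chosen by function. Among 8 further m1A-linked genes, 4 had positive and 4 negative log2 fold changes, with a median of -0.0099, and none passed with edgeR. The members with the smallest p were Trmt10b (3.87 ± 0.355 CPM in KO and 4.89 ± 0.978 in WT, log2 -0.34) and Trmt10a (5.41 ± 0.393 and 6.24 ± 0.608 CPM, log2 -0.21), paralogs of Trmt10c that methylate tRNA. They were followed by Alkbh7, a mitochondrial AlkB protein (log2 0.18), and Fto, a demethylase of m6A (log2 -0.079). Their edgeR adjusted p values were 0.759, 0.804, 0.823 and 0.85. Rrp8, named for its role as the writer of m1A in the large ribosomal RNA, stood at 15.95 ± 0.494 CPM in KO and 16.3 ± 0.97 CPM in WT.

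Of the 7 other AlkB genes, 3 were positive and 4 negative with a median of -0.011, and none passed. Besides Alkbh7 and Fto, the smallest p belonged to Alkbh4 (log2 0.27, SE 0.258) and to Alkbh2, a DNA repair enzyme (log2 -0.09, SE 0.165). Alkbh5, an m6A demethylase named after its values were seen, was the most abundant of the list per length at 31 ± 1.85 CPM per kilobase in KO and 31.3 ± 0.505 in WT.

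The list for the m6A writer complex, which makes the mark that the YTHDF readers bind best, also held Mettl16, a separate m6A methyltransferase. The list had 6 positive and 3 negative members of 9, Mettl16 among the negative (log2 -0.044), with a median of 0.038. None passed with edgeR, and 1 had an unadjusted p under 0.05 on the lower side, as did 3.06% of all genes tested. That gene was Virma, the scaffold of the complex, at 57.3, 55.3 and 59.6 CPM in KO and 67.2, 62.4 and 63.5 CPM in WT (log2 -0.16, SE 0.0701, edgeR adjusted p = 0.713). Its KO libraries all lay below its WT libraries, an order shared by 6.30% of the genes tested. The catalytic subunit Mettl3 (log2 0.24, SE 0.128), the ubiquitin ligase Cbll1 (0.24, SE 0.143) and the adaptor Rbm15 (0.13, SE 0.124) were positive and overlapped between groups.

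In the CCR4-NOT complex, through which YTHDF2 shortens poly(A) tails, 4 members were positive and 6 negative of 10, with a median of -0.035, and none passed. Cnot6, a deadenylase, stood at 101 ± 3.12 CPM in KO and 107 ± 2.54 CPM in WT (log2 -0.089), and Cnot9 at 62.4 ± 0.943 and 65.5 ± 0.21 CPM (log2 -0.071). Both were without overlap, as 2 of the 10 members against 6.30% of all genes. Cnot11 (log2 0.10) and the scaffold Cnot1 (log2 -0.073) overlapped.

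**Figure D5:**
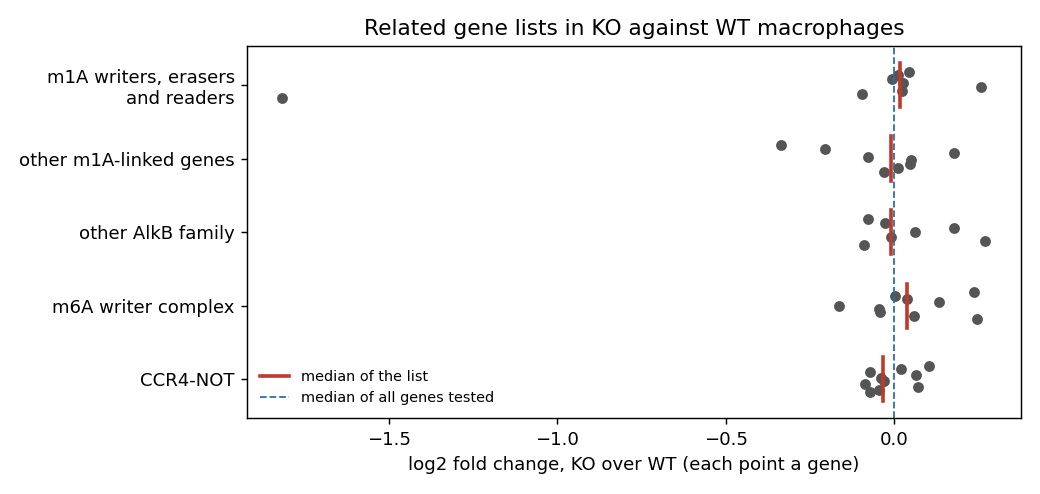
Log2 fold change, KO over WT, of each gene (points) in the analysed m1A genes and the 4 lists of related genes; red bars are list medians and the dashed line is the median of all genes tested. Trmt61a is the single point at -1.81, and all other points lie between -0.34 and 0.27.

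The pattern of Trmt61a over the 6 libraries was compared with that of 11245 genes with at least 1 CPM by Pearson's r of log2 CPM, as a description. All 6 libraries share the split between genotypes, so a high r mostly repeats that split. The 5 genes with the highest r were Has2, a hyaluronan synthase (r = 0.987), Impa1, an inositol monophosphatase (0.986), Zfp277, a zinc finger protein (0.985), Osgin2 (0.982) and Ufsp2, a protease that acts on the modifier UFM1 (0.977). Each was lower in all KO libraries than in any WT library, an order shared by 6.30% of the genes tested. Their log2 values ran from -0.94 for Has2 to -0.12 for Ufsp2, and none passed (edgeR adjusted p from 0.694 to 0.739). Has2 stood at 1.23 ± 0.0654 CPM in KO and 2.37 ± 0.14 CPM in WT, near the lowest level considered. Among the other members, Trmt6 had the highest r with Trmt61a at 0.883, in place 153, and Alkbh1 the lowest at -0.683.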

How the data were processed

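RNA from sorted tumour macrophages was sequenced after TruSeq stranded mRNA library preparation, per the labels' protocols. The submitters' processing notes list Trimmomatic, HISAT2, Cufflinks and HTSeq and the build mm10 but give neither versions nor roles. The authors deposited unnormalized read counts, 1 column per library. Annotation, strand setting and the handling of multi-mapping reads are not given in the sources used here.

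A filterByExpr step at a minimum count of 10 and a total of 15 kept 12136 genes. They were fitted with edgeR 4.0.16 in R 4.3.3 (TMM, robust quasi-likelihood, genotype only). Genes passed at a Benjamini-Hochberg adjusted p under 0.05 over all genes. Each log2 fold change puts KO over WT. Intervals use the fit's t quantile and SE. Ratios were tested with two-sided exact permutation tests. Lengths, coordinates and sequences came from GENCODE M21 (GRCm38, the assembly of mm10). Named genes were the members, up to 4 per list by smallest p, the 5 most like Trmt61a, Lyz2 and Ckb. Outside that rule, Hsd17b10, Prorp, Rrp8 and Mettl16 were named for their roles, and Alkbh5 and Ythdc2 after their values were seen. The members and lists were chosen with earlier results of these data known. Alternatives used other scalings and filters, DESeq2 1.42.0, limma-voom (limma 3.58.1), a replicate block and each library left out.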

Additional observations from a re-analysis of the deposited data

How the results depend on the processing

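The fall of Trmt61a kept its direction in all 15 alternatives, and its call held in 7 of them (adjusted p from 3.56e-10 with DESeq2 to 0.314). With at least 1 CPM required in 3 libraries it was missed at log2 -1.81 (adjusted p = 0.0571), and with limma-voom at -1.82 (0.0522). Leaving out 1 library gave -1.94 to -1.69. The number of lower genes, 2, was 1 with RLE factors, upper quartile factors, library totals alone, no filter or limma-voom, 0 with the 1 CPM filter, 19 with DESeq2 and 0 to 2 with a library left out. The number of higher genes, 0, was 8 with DESeq2 and 0 to 3 with a library left out. The cause was not tested.

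The replicate numbers pair nothing the labels name, and the deviations of same-numbered libraries correlated at -0.0574, -0.0941 and -0.109, with no library closest to its own number. With the replicate block 1 gene was lower, and Trmt61a stood at -1.82 (adjusted p = 0.103). The log2 ratio of Trmt61a to Trmt6 differed by -1.74 with the block and without it, which the balanced design fixes in advance. Its exact permutation p was 0.25 with the block and 0.1 without it, each the smallest that its permutations allow, so the rise is fixed in advance.

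No other member passed in any alternative. The sign of 5 members near 0 turned in some: Ythdf1 was 0.0023 with the 1 CPM filter, and with a library left out the ranges were -0.033 to 0.029 for Ythdf1, -0.020 to 0.057 for Ythdf2, -0.010 to 0.13 for Ythdf3, -0.087 to 0.11 for Trmt10c and -0.053 to 0.075 for Alkbh3. The log2 ratios of Trmt61a to the other 7 members ran from -2.25 to -1.59 with a library left out. At 33 to 157 counts per library, the depth limits the precision of Trmt61a.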

Other observations

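Ythdc2, a YTH-domain helicase outside the lists and chosen after its values were seen, had 363, 340 and 357 counts in KO and 456, 418 and 437 in WT. All KO libraries lay below all WT libraries, an order shared by 6.30% of the genes tested. The gene did not pass (edgeR adjusted p = 0.701, log2 -0.28 with an SE of 0.0939). The means were 18.1 ± 0.666 CPM in KO and 22.0 ± 1.12 CPM in WT (SD, n = 3 each).

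The balance of the erasers, also looked at outside the planned comparisons, was the ratio of Alkbh3 to Alkbh1 per kilobase of exon. It was 3.26, 2.88 and 3.14 in KO and 3.44, 3.94 and 3.51 in WT, without overlap (two-sided exact permutation p = 0.1, the smallest that 3 against 3 allows). This pair was singled out after its values were seen. Of single genes tested, 6.30% had all KO libraries below all WT libraries and 6.11% had the opposite order. No such share was formed for ratios of genes.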
